A study of Mus musculus with 8 samples.

Results

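The genes described here encode the proteins of the cytosolic ribosome, measured in multipotent progenitors of mice with the Elektra mutation of Slfn2 and of their wild-type littermates. They were taken from the annotated array table by gene symbol, as the Rpl and Rps genes with a number and an optional ending of a, x, y or l, the stalk genes Rplp0 to Rplp2, and Rpsa. This gave 83 of the 30918 genes with a symbol, 32 of the small and 51 of the large subunit, read by 106 probe sets. Each gene is represented by its brightest probe set, the one with the highest mean log2 intensity over the 8 arrays. Of 80 proteins in a list of the canonical ribosome, 76 are among them. Another 4, among them Rps3a1, Fau and Rack1 (Gnb2l1 in the table), have symbols the choice did not cover. The remaining 7 genes (Rpl3l, Rpl10l, Rpl32l, Rpl36al, Rpl39l, Rps4l and Rps27l) are paralogs or copies of canonical members.

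The Elektra group held 4 samples from mice homozygous for the elektra allele of Slfn2 (Slfn2 elektra/elektra) on a C57BL/6 background. The wild-type group held 4 samples from littermates homozygous for the wild-type allele. No mouse had been treated, and ages are not stated. Each sample pooled the marrow of 2 mice of 1 genotype, although the series text speaks of 4 mice per genotype, so how many animals stand behind a group is not settled. The Elektra allele is carried by every cell of the animal. The cells were sorted as LSK CD48- CD150- from marrow enriched for c-Kit, with dead cells excluded. Their RNA was hybridised to Affymetrix mouse arrays after amplification of 100 to 200 pg by 12 cycles of PCR. The comparison asks how the Slfn2 mutation alters the resting transcriptome of these progenitors.

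Of the gate's genes, Kit, Ly6a (Sca-1) and Cd34 lay above 99% of all genes in signal, Cd48 was at the 75.4th percentile and Slamf1, which encodes CD150, at the 39.0th. The lymphoid-priming receptor gene Flt3 was 7.09 ± 0.16 in Elektra and 7.43 ± 0.07 in wild-type arrays (SD, n = 4 each). Every Elektra array was below every wild-type array, with a log2 difference of -0.34 and an unadjusted p of 0.00904 in limma, and the gene did not pass the adjusted test. Erythroid markers, 11 of 12 measured, averaged 3.07 to 3.82 in Elektra arrays and 3.31 to 3.71 in wild-type arrays. Neutrophil markers, 9 of 9 measured, averaged 2.32 to 3.46 in Elektra arrays and 2.12 to 3.98 in wild-type arrays. Elektra replicate 2 stood apart over all probe sets. Its upper quartile was 3.63, where the other 7 arrays had 3.80 to 3.83, and its score on the first principal component was 58.2, where they had -15.2 to -2.40. Values without it stand beside several of the differences below.

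A ribosome is built from ribosomal RNA and one copy of most of these proteins, so their messages are produced together and are among the most abundant in any growing cell. Those messages begin with a run of pyrimidines, the 5′ terminal oligopyrimidine (TOP) element, through which mTORC1 and the binding protein Larp1 control how strongly they are translated. Blood stem and progenitor cells are known to depend on a low, controlled rate of protein synthesis, and loss of 1 copy of a ribosomal protein gene causes Diamond-Blackfan anaemia in humans. Slfn2 belongs to the Schlafen family, known for keeping immune cells quiescent. Arrays read the level of message and not its translation, and their values are relative to the other genes on the array. Fewer cells of a type and less RNA per cell cannot be told apart in such bulk samples.

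Promoter windows of RefSeq (GRCm38.p6), running from 250 bases before to 50 after the annotated start, were matched for 62 of the 83 genes, with 74 windows. Shown here are the stretches from 50 bases before to 25 after the start for the 6 genes described first below, those whose groups did not overlap or whose unadjusted p was under 0.05. Capitals mark the longest run of C or T lying wholly within 20 bases before to 25 after the start, read on the gene's own strand.
Rpl5, chr5:107900478-107900552, plus strand: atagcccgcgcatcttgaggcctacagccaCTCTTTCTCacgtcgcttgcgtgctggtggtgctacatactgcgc
Rpl37a, chr1:72711210-72711284, plus strand: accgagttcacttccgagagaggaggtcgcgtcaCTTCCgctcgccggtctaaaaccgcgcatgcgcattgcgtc
Rpl13a, chr7:45128721-45128795, minus strand: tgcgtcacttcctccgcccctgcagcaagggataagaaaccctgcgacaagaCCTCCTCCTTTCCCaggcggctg
Rpl27, chr11:101442195-101442269, plus strand: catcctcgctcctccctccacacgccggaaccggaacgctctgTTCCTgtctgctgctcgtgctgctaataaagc
Rpl7a, chr2:26910757-26910831, plus strand: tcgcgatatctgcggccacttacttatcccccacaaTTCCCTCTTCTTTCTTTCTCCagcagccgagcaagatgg
Rpl31, chr1:39367801-39367875, plus strand: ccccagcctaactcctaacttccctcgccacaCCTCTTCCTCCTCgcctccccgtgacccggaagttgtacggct

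The pyrimidine run was 21 bases long in Rpl7a, 14 in Rpl13a, 13 in Rpl31, 9 in Rpl5, and 5 in both Rpl37a and Rpl27. A run of at least 7 was present in 51.4% of the windows of ribosomal protein genes and in 24.4% of all 32851 windows. The letters CGGAAG, the core that Ets factors such as GABP recognise, stood on either strand in 60.8% of the ribosomal protein windows and in 16.9% of all windows. CTTTCC on the transcript strand, searched from 10 bases before to 50 after the start, was in 25.7% against 2.59%. CACGTG, the E-box that Myc binds, was in 10.8% against 7.15% and TATAAA, searched on either strand, in 9.46% against 13.6%. These are matches of letters near the annotated start, and the start used in these progenitors was not measured.

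No ribosomal protein gene passed the test between the genotypes after adjustment over all genes. In limma with Benjamini-Hochberg adjustment, 0 of the 83 genes passed an adjusted p of 0.05, where 0 of all 30918 genes did (0%), and the lowest adjusted p among the 83 was 0.884. The methods' t-test, the pooled-variance test behind the authors' deposited p-values, also gave 0 after adjustment. At an unadjusted p under 0.05, 3 ribosomal protein genes were counted against 5.5% of all genes. Of these, Rpl37a and Rpl13a were higher in Elektra, where 2.63% of all genes were, and Rpl5 was lower, where 2.87% were. For 4 ribosomal protein genes the genotypes' values did not overlap, against 3.23% of all genes. Rpl37a, Rpl27 and Rpl7a had the higher values in Elektra (1.86% of all genes) and Rpl31 the lower (1.37%). The shares among ribosomal protein genes, 3.61% and 4.82%, were near those of all genes.

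The typical difference was close to 0 in both subunits. The median log2 difference, Elektra minus wild type, was 0.02 over the 83 genes, 0.003 over the small subunit and 0.03 over the large, beside 0.01 over all genes. A positive sign was seen for 49 genes and a negative one for 34, and over all genes for 16654 and 14264. Other genes of like signal differed from all genes. At a mean log2 intensity of 7 or more, ribosomal protein genes had a median of 0.007 (57.7% positive) and other genes -0.02 (43.7%). From 3 to 7 the medians were 0.03 (57.1%) and -0.04 (40.2%), and under 3 they were 0.03 (63.6%) and 0.03 (61.0%). Without Elektra replicate 2, the other genes from 3 to 7 had a median of 0.006, with 51.3% positive. That array also stood apart for other genes at 7 or more, averaging 7.91 against 8.01 to 8.05 in the other arrays. Under 3, it averaged 1.73 against 1.62 to 1.66. The medians of these other genes without it were not computed. The 95% interval of the log2 difference lay inside -0.5 to 0.5 for 56 of the 83 and inside -1 to 1 for 81. The mean log2 intensity of the 83 genes was 5.31, 5.31, 5.29 and 5.20 in the Elektra arrays and 5.28, 5.33, 5.24 and 5.23 in the wild-type arrays. These values overlap fully, with means of 5.28 ± 0.05 in Elektra arrays and 5.27 ± 0.04 in wild-type arrays (SD, n = 4 each).

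**Figure D1:**
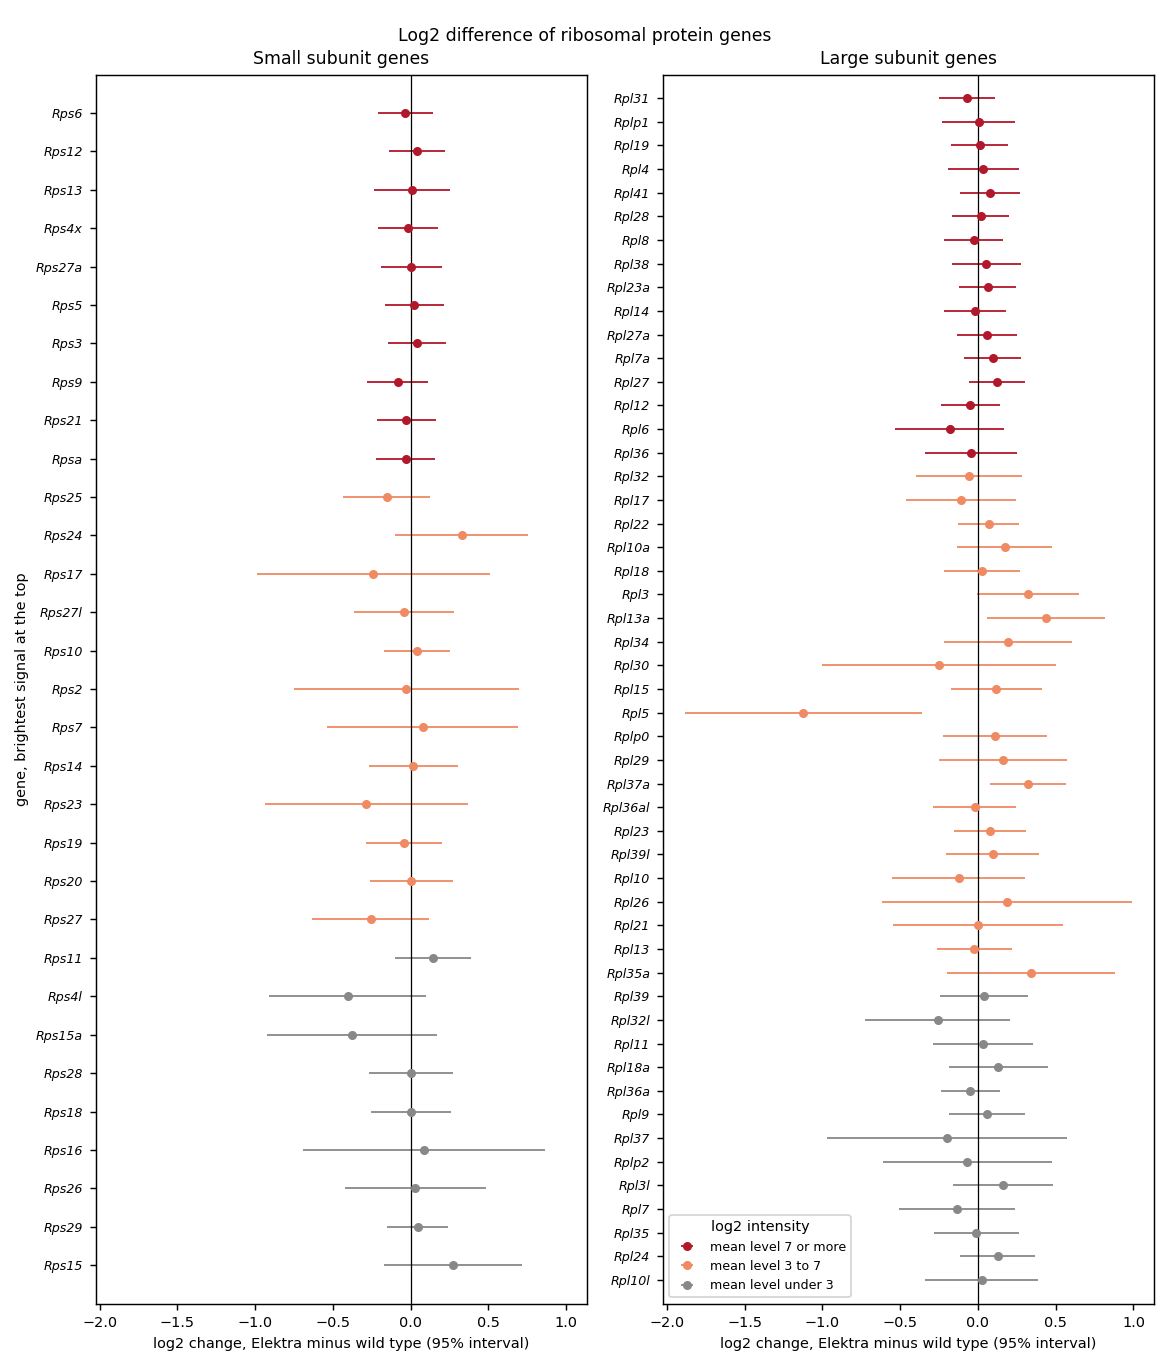
Log2 difference in intensity (horizontal axis, Elektra minus wild type, with 95% interval from limma) of the ribosomal protein genes, small subunit left and large subunit right, ordered by mean signal with the brightest at the top. Intervals are narrowest for bright genes and wider for most others, and Rpl5, at -1.12, lies farthest from 0.

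Rpl5 had the largest difference of the 83 genes in absolute size. Its product joins Rpl11 and 5S ribosomal RNA in a particle that enters the large subunit and, when ribosome assembly is disturbed, binds Mdm2 and so stabilises p53. Rpl5 had log2 intensities of 4.39, 3.07, 4.02 and 3.53 in the Elektra arrays, against 5.13, 4.48, 5.65 and 4.25 in the wild-type arrays. The groups overlapped only through Elektra replicate 1, the highest of its group, and wild-type replicate 4, the lowest of its own. The log2 difference was -1.12 (SE 0.34, 95% interval -1.88 to -0.36), with an unadjusted p of 0.00817 and an adjusted p of 0.884 in limma. With each array left out in turn it ran from -1.33 to -0.87, and without Elektra replicate 2 it was -0.90. A dimmer second probe set for Rpl5 read 2.72 ± 0.31 in Elektra arrays and 2.71 ± 0.49 in wild-type arrays (SD, n = 4 each), a log2 difference of 0.01. The mean of both probe sets gave -0.56.

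Rpl11, the partner of Rpl5, had values close together in the 2 genotypes. Its log2 intensity was 3.03, 2.63, 2.55 and 2.41 in the Elektra arrays and 2.40, 2.77, 2.63 and 2.70 in the wild-type arrays. The groups overlapped, with a log2 difference of 0.03 and a 95% interval from -0.29 to 0.35. Its probe set was dim, and the difference between the values of Rpl5 and Rpl11 was not tested.

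Rpl37a and Rpl13a, both of the large subunit, had the smallest unadjusted p among genes with higher values in Elektra. Rpl37a, whose product binds zinc, had log2 intensities of 3.98, 4.32, 4.13 and 3.97 in the Elektra arrays, against 3.82, 3.81, 3.86 and 3.63 in the wild-type arrays. All 4 Elektra values lay above all 4 wild-type values, with Elektra replicate 2 the highest. The log2 difference was 0.32 (SE 0.11, unadjusted p = 0.0141, adjusted p = 0.884 in limma), and it was 0.25 without Elektra replicate 2. It was 0.15, at an unadjusted p of 0.215, without Elektra replicates 2 and 3 and wild-type replicate 4, the 3 arrays that earlier results of these data put apart. Of these 3, only Elektra replicate 2 stood apart in its upper quartile and on the first principal component.

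Rpl13a, whose product is known in human monocytes for leaving the ribosome to silence inflammatory messages, read 4.53, 4.86, 5.12 and 4.83 in the Elektra arrays, against 4.09, 4.68, 4.63 and 4.20 in the wild-type arrays. Elektra replicate 1 lay below wild-type replicates 2 and 3, so the groups overlapped. The log2 difference was 0.44 (SE 0.17, unadjusted p = 0.0278, adjusted p = 0.884 in limma). Its unadjusted p passed 0.05 in 14 of 21 fits, counting the one reported and 20 alternatives. It was 0.0501 without Elektra replicate 2 and 0.0648 in the methods' t-test. Without the same 3 arrays the log2 difference was 0.21, at an unadjusted p of 0.344 in limma.

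Rpl27, Rpl7a and Rpl31 are bright large-subunit genes whose groups did not overlap although the differences were small. Rpl27 had log2 intensities of 8.14, 8.03, 8.11 and 8.07 in the Elektra arrays, against 7.97, 7.95, 7.96 and 7.99 in the wild-type arrays. Rpl7a, the gene with the longest pyrimidine run of the 6 shown, read 8.75, 8.72, 8.80 and 8.79 in the Elektra arrays, against 8.65, 8.70, 8.69 and 8.63 in the wild-type arrays. In both genes every Elektra array was above every wild-type array, with log2 differences of 0.12 for Rpl27 and 0.09 for Rpl7a. Rpl31, which sits beside the tunnel through which the new protein leaves, read 10.65, 10.65, 10.69 and 10.60 in the Elektra arrays, against 10.76, 10.69, 10.73 and 10.71 in the wild-type arrays. Its Elektra values were all lower, by 0.07 on the log2 scale, and Elektra replicate 3 came within 0.01 of the lowest wild-type array.

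The unadjusted p of these 3 genes differed between tests. In limma, which shares information on spread between genes, their unadjusted p was 0.168 for Rpl27, 0.275 for Rpl7a and 0.402 for Rpl31. In the authors' deposited table, which rests on each gene's own spread, it was 0.00348, 0.0091 and 0.0188 for the same probe sets. The second, dimmer probe set of Rpl27 differed by -0.04 and that of Rpl7a by 0.13. Rpl31 had a second probe set with a log2 difference of 0.07, opposite in sign to the brighter one. The second probe sets had mean log2 intensities of 3.48 for Rpl27, 3.92 for Rpl7a and 4.54 for Rpl31. The brighter ones had 8.03, 8.72 and 10.68. RefSeq names 3 pseudogenes after Rpl27, 14 after Rpl7a and 24 after Rpl31. Genes of 1 chromosome mostly had probe set numbers close together. The dimmer sets of Rpl27, Rpl7a and Rpl31 had numbers near those of their chromosome's other genes. The brighter sets had numbers beside those of genes on other chromosomes. Whether a probe set reads the gene or such a copy was not tested, so the values are uncertain on this point.

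**Figure D2:**
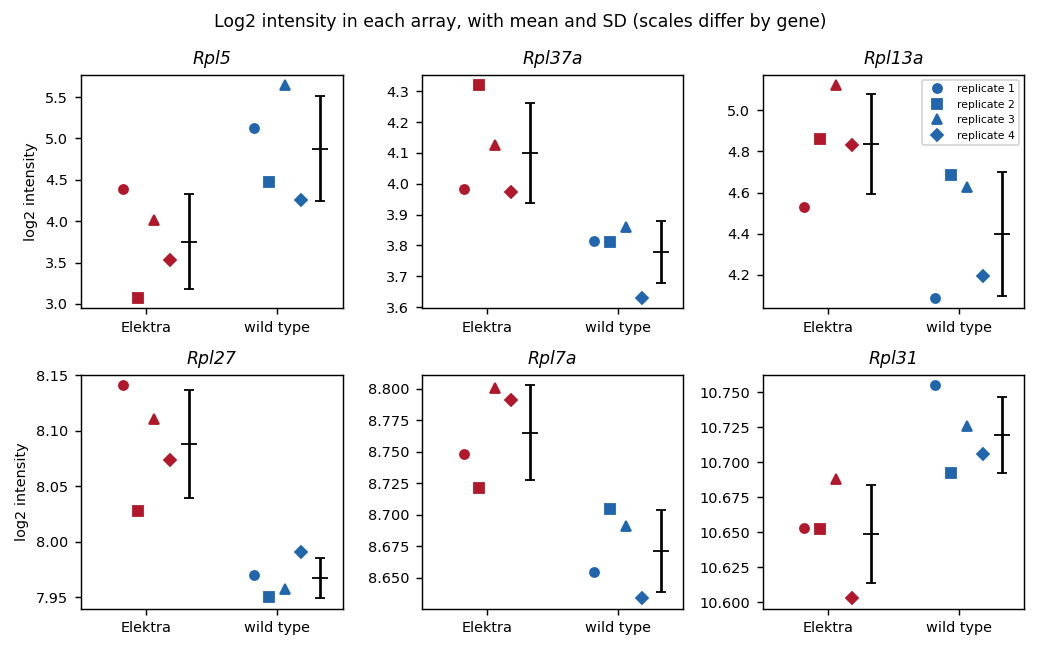
Log2 intensity (vertical axis, a different scale for each gene) of Rpl5, Rpl37a, Rpl13a, Rpl27, Rpl7a and Rpl31 in each Elektra array (left, red) and wild-type array (right, blue), with symbols for replicates 1 to 4 and bars for the mean and SD. The groups overlap for Rpl5 and Rpl13a and are apart for the other 4 genes.

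Signal differed widely between these probe sets, and the bright ones gave the most precise differences. The genes fell into 26 bright ones (mean log2 intensity of 7 or more), 35 of middle signal (3 to 7) and 22 dim ones (under 3), bounds chosen after the values were seen, with a gap between Rpl32 at 6.42 and Rpl36 at 7.45. Signal of different probe sets is not a comparison of message levels, since probes differ in how well they bind. RefSeq names pseudogenes after 18 of the 26 bright genes, 29 of the 35 of middle signal and 16 of the 22 dim ones. Several other genes, among them Rps6 and Rpl3, also had a brightest probe set numbered away from those of their chromosome's other genes. Which copy a probe set reads was not tested. Among the 26 bright genes the log2 difference ran from -0.18 to 0.12, with a median of 0.007, and its 95% interval lay inside -0.5 to 0.5 for 25. The median SE was 0.085 for bright genes, 0.154 for those of middle signal and 0.145 for dim ones. Among the 35 of middle signal the interval lay inside those bounds for 17 and among the 22 dim genes for 14. Differences of the size seen for Rpl37a could thus be missed in many of the less bright genes.

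Most bright ribosomal protein genes varied less between arrays of a genotype than other genes of like signal. For 20 of the 26, the SD within genotype, pooled over both, was below the first quartile of other genes within 0.5 of their own level. These sets held 21 to 425 genes. The SD had a median of 0.058, against 0.150 for the 677 other genes with a mean signal of 7 or more. Those 2 medians are not matched for signal, whose median was 9.28 and 7.73. The SD of other genes fell with signal, from a median of 0.169 at 7 to 7.5 to 0.115 at 9 to 9.5. Rps6, whose product is phosphorylated by S6 kinase downstream of mTORC1, had the lowest, with 10.77, 10.73, 10.77 and 10.72 in the Elektra arrays and 10.81, 10.76, 10.79 and 10.77 in the wild-type arrays. These groups overlapped and the log2 difference was -0.03, with an interval from -0.21 to 0.14. The 6 bright genes that were not below the first quartile were Rpl38, Rpl4, Rplp1, Rps13, Rpl36 and Rpl6. Without Elektra replicate 2 the median SDs, again not matched for signal, were 0.054 for the ribosomal protein genes and 0.125 for the other bright genes.

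**Figure D3:**
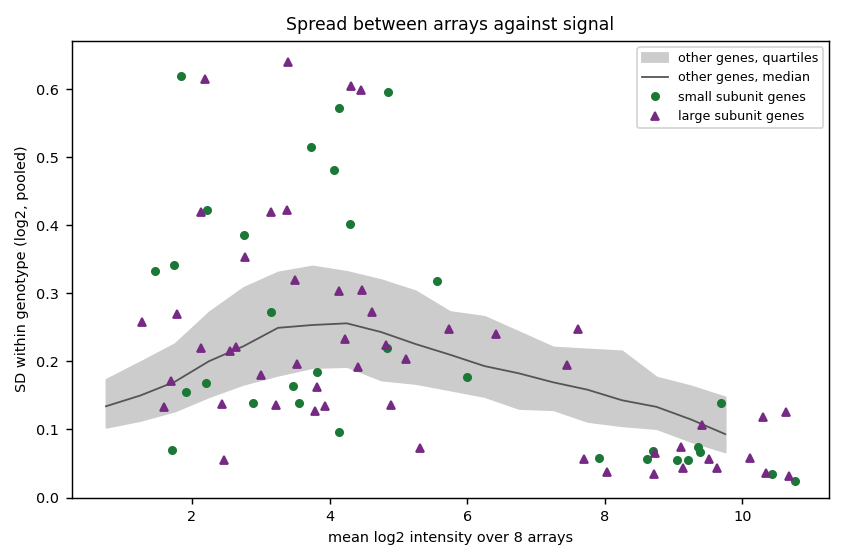
SD of log2 intensity within genotype, pooled over Elektra and wild type (vertical axis), against mean log2 intensity over the 8 arrays (horizontal axis) for small subunit (circles) and large subunit (triangles) genes, with the median and quartiles of other genes in grey. Most ribosomal protein genes between 7 and 9.5 lie under the grey band, and those below 6 lie within, above and below it.

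After each genotype's mean was subtracted, the median correlation over the 8 arrays was 0.094 between pairs of bright ribosomal protein genes and 0.135 between pairs of other bright genes. It was 0.059 among those of middle signal and 0.016 among dim ones. All pairs share the same arrays and normalisation, and the values are given as a description.

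Elektra replicate 2 stood apart for the other genes, while for ribosomal protein genes it lay within the range of the other arrays. In that array the 10043 other genes of middle signal averaged 0.19 below their mean over the 8 arrays. The 35 ribosomal protein genes of middle signal averaged 0.08 above theirs, where the other arrays ran from -0.12 to 0.09. Among bright genes the figures were -0.11 for other genes and -0.03 for ribosomal protein genes, whose other arrays ran from -0.04 to 0.03. Other genes with a signal under 3 averaged 0.08 above their mean in that array. The shift thus differed with signal and between sets of genes, and its part in any single difference was not tested.

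**Figure D4:**
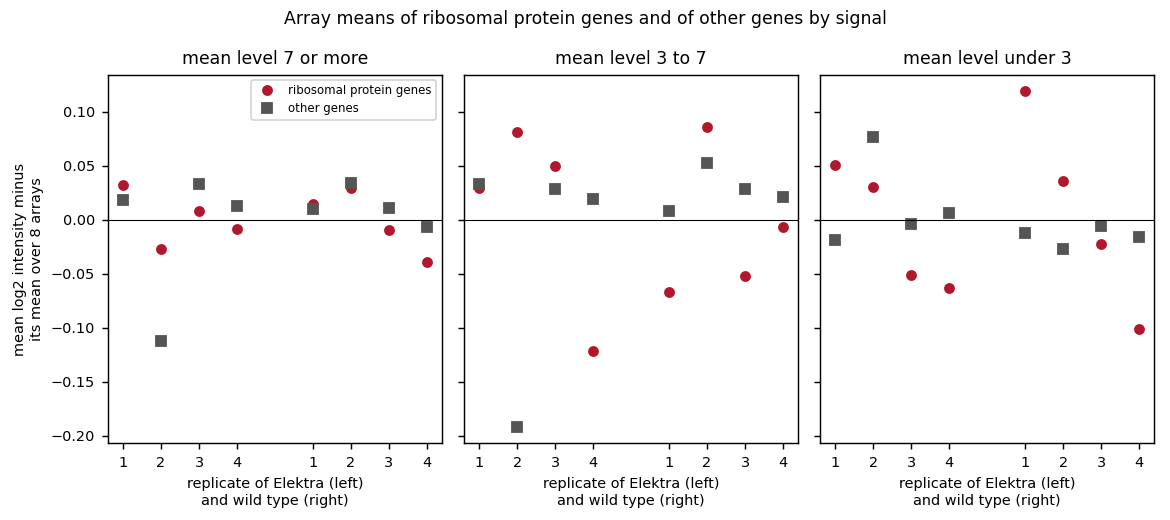
Mean log2 intensity of ribosomal protein genes (circles) and other genes (squares) in each array, less its mean over the 8 arrays (vertical axis), for Elektra replicates (left in each panel) and wild-type replicates (right), in bright, middle and dim genes. The other genes of Elektra replicate 2 lie at -0.11 and -0.19 in the bright and middle panels, away from all other arrays.

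Small subunit genes gave no value under an unadjusted p of 0.05, where 5.5% of all genes did. The smallest p among those higher in Elektra belonged to Rps24, a gene needed for processing of the small subunit's RNA, with 5.73 ± 0.17 in Elektra arrays and 5.40 ± 0.42 in wild-type arrays (SD, n = 4 each), a log2 difference of 0.33. Rps15 differed by 0.27. On the lower side Rps4l differed by -0.41, Rps15a by -0.38 and Rps27 by -0.26. Each of these 5 values moved by over 1.5 times when 1 array was left out. Without Elektra replicate 2, Rps15 differed by 0.06, Rps15a by -0.11 and Rps4l by -0.23. Rps24 differed by 0.12 without wild-type replicate 1, and Rps27 by -0.15 without wild-type replicate 3. Among the brightest, Rps12 read 10.45 ± 0.02 in Elektra arrays and 10.40 ± 0.04 in wild-type arrays, and Rps13 9.69 in both. The dimmest, Rps15, Rps29 and Rps26, read 1.60, 1.73 and 1.76 in Elektra and 1.32, 1.69 and 1.73 in wild type.

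The stalk proteins form the arm that recruits elongation factors to the ribosome. Rplp1 had log2 intensities of 10.64, 10.42, 10.65 and 10.83 in the Elektra arrays and 10.57, 10.71, 10.64 and 10.60 in the wild-type arrays. Elektra arrays held both the lowest and the highest of these values, and the log2 difference was 0.00 with an interval from -0.23 to 0.24. Rplp0 was 4.28 ± 0.22 in Elektra arrays and 4.17 ± 0.25 in wild-type arrays, a difference of 0.11. Rplp2 was 2.09 ± 0.44 in Elektra arrays and 2.16 ± 0.40 in wild-type arrays, a difference of -0.07 (SD, n = 4 each). None of the 3 stalk genes passed.

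Rpl38, known in the mouse for its part in translation of Hox messages and axial patterning, read 9.44 ± 0.15 in Elektra arrays and 9.39 ± 0.04 in wild-type arrays. Rpl19 and Rpl24, at the bright and the dim end of the large subunit, differed by 0.01 and 0.13, and Rpl24 by 0.04 without Elektra replicate 2. Rpl3, which lies close to the site of peptide bond formation, was 4.98 ± 0.24 in Elektra arrays and 4.65 ± 0.20 in wild-type arrays, a log2 difference of 0.32 at an unadjusted p of 0.0519 in limma. Its other 2 probe sets each differed by -0.09, and the mean of the 3 gave 0.05. The log2 difference of Rpl3 was 0.09 without Elektra replicates 2 and 3 and wild-type replicate 4. Rpl6 differed by -0.18 with 7.52 ± 0.18 in Elektra arrays and 7.71 ± 0.30 in wild-type arrays (SD, n = 4 each).

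A list of ribosomal protein genes mutated in Diamond-Blackfan anaemia held 19, all among the 83. Disease genes of other kinds were not part of the list. None passed the adjusted test. At an unadjusted p under 0.05 there were 0 higher and 1 lower, Rpl5, where 2.63% of all genes were higher and 2.87% lower. The median log2 difference was 0.03, with 12 positive and 7 negative, and it was -0.02, with 9 positive and 10 negative, without Elektra replicate 2. Rps19, the one most often mutated in patients, read 3.64, 3.67, 3.33 and 3.47 in the Elektra arrays and 3.51, 3.45, 3.71 and 3.61 in the wild-type arrays. Its groups overlapped, with a log2 difference of -0.05 and an interval from -0.29 to 0.20. After Rpl5 the smallest p values belonged to Rps24, Rps15a and Rps27, given above.

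None of the 7 paralogs and copies passed the test. Rpl3l, known from striated muscle, was 2.20 ± 0.27 in Elektra arrays and 2.04 ± 0.15 in wild-type arrays, and Rpl10l, known from the testis, was 1.28 ± 0.33 in Elektra arrays and 1.26 ± 0.16 in wild-type arrays. Rpl39l, which male germ cells use in place of Rpl39, differed by 0.10, and by -0.03 without Elektra replicate 2, while Rpl39 differed by 0.04. Rps27l, a target of p53, was 4.82 ± 0.26 in Elektra arrays and 4.86 ± 0.17 in wild-type arrays, a difference of -0.04, and Rps27 differed by -0.26. Rpl36al differed by -0.02 and Rpl36a by -0.05, and Rpl32l by -0.26 beside -0.06 for Rpl32. Rps4l, listed by RefSeq as a transcribed pseudogene, was 2.56 ± 0.44 in Elektra arrays and 2.96 ± 0.32 in wild-type arrays, and its X-linked relative Rps4x was 9.37 ± 0.08 in Elektra arrays and 9.39 ± 0.05 in wild-type arrays (SD, n = 4 each). Probe sets of near-identical copies can share signal, so these values are uncertain as to which copy they read.

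Of the 83 genes, 21 were read by several probe sets, 14 of them bright and 7 of middle signal. The gap between the log2 differences of a gene's probe sets was largest for Rpl5 (1.13), followed by Rpl21 (0.82), Rpl30 (0.51) and Rpl3 (0.42). The brightest probe set of Rpl21 differed by -0.0005, and a second one read 2.97, 2.25, 1.80 and 3.17 in the Elektra arrays, against 2.17, 3.66, 3.45 and 4.21 in the wild-type arrays. These groups overlapped, with a log2 difference of -0.82 at an unadjusted p of 0.0812. Rpl30 differed by -0.25 on the brighter and by 0.26 on the dimmer probe set. The widest spread within genotype was in Rpl26, Rps16 and Rpl37, with pooled SDs of 0.64, 0.62 and 0.62. Rpl26 stood at 4.74 in Elektra replicate 2 and between 2.76 and 3.49 in the other 7 arrays.

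Many of these genes carry small nucleolar RNAs (snoRNAs) in their introns, which guide the chemical modification of ribosomal RNA and are released from the spliced-out intron. By RefSeq coordinates, with strand not checked, 29 of the 83 genes hold 58 snoRNA genes, of which 40 were measured. Of those, 32 had lower and 8 higher values in Elektra, with a median log2 difference of -0.26. On average they differed by -0.31 and their 24 host genes by 0.006. Lower values were common elsewhere too. Of the 79 other genes named Snord or Snora, 49 were lower, with a median of -0.11. Of the 10043 other genes with a signal of 3 to 7, 6006 were lower. Over all 30918 genes 14264 were lower, and the median was 0.01. None of the 40 passed the adjusted test, and 4 reached an unadjusted p under 0.05 in limma, all lower. Of the 79 other snoRNA genes 7 were lower at that p, as were 2.87% of all genes. This set was drawn up after the values were seen.

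The mean over the 40 snoRNA genes was 4.14, 3.67, 4.16 and 3.77 in the Elektra arrays, against 4.39, 4.50, 4.14 and 3.95 in the wild-type arrays. Elektra replicates 2 and 4 were the lowest, wild-type replicates 1 and 2 the highest, and the groups overlapped. Without Elektra replicate 2 the median was -0.16, with 30 lower and 10 higher, without Elektra replicate 4 it was -0.15, without wild-type replicate 2 it was -0.16 and without wild-type replicate 4 it was -0.42. The other snoRNA genes were lowest in the same array, at 3.26 in Elektra replicate 2 against 3.48 to 3.77 in the other 7, and its part in the result was not tested. Small RNAs of this size are read with a large spread, the pooled SD of the 40 having a median of 0.60.

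Snora69, which lies in Rpl39, had the lowest log2 difference of all 30918 genes and was singled out for it. Its log2 intensity was 4.70, 2.86, 3.49 and 2.35 in the Elektra arrays, against 5.70, 4.51, 5.60 and 5.07 in the wild-type arrays. Elektra replicate 1 was above the lowest wild-type array, and the other 3 Elektra arrays were below all of them. The log2 difference was -1.87 (SE 0.45, adjusted p = 0.884 in limma), and -2.32 to -1.54 with each array left out in turn. Rpl39 itself was 3.02 ± 0.09 in Elektra arrays and 2.98 ± 0.24 in wild-type arrays (SD, n = 4 each). Snord32a, which lies in Rpl13a, differed by -0.79, and by -0.42 without Elektra replicate 2, while its host differed by 0.44.

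**Figure D5:**
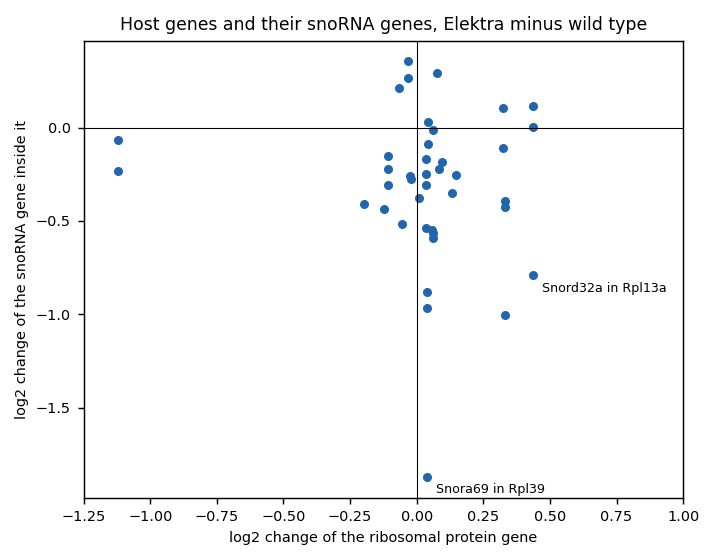
Log2 difference, Elektra minus wild type, of each of the 40 measured snoRNA genes (vertical axis) against that of the ribosomal protein gene it lies in (horizontal axis). Most points lie below 0 on the vertical axis and near 0 on the horizontal axis, and the named points are among the 4 with an unadjusted p under 0.05.

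The rest of the translation machinery was likewise without a gene that passed the adjusted test. Translation factors with a TOP element, 23 of 23 measured, had a median log2 difference of 0.02, with 0 genes at an unadjusted p under 0.05. Eef2, which moves the ribosome along the message, was 9.20 ± 0.13 in Elektra arrays and 9.25 ± 0.09 in wild-type arrays, and Eef1a1, which delivers aminoacyl-tRNA, was 6.54 ± 0.23 in Elektra arrays and 6.74 ± 0.20 in wild-type arrays. Ribosome biogenesis genes, 64 of 65 measured, had a median of 0.04, with 38 positive and 26 negative. That balance rested on single arrays, with 52 positive and a median of 0.14 without Elektra replicate 2, and 23 positive and a median of -0.04 without Elektra replicate 3. An unadjusted p under 0.05 was seen for 2 of the 64, 1 with higher and 1 with lower Elektra values, against 5.5% of all genes. The higher one was Noc4l, needed for the small subunit, at 4.07, 3.91, 4.02 and 3.88 in the Elektra arrays and 3.73, 3.73, 3.45 and 3.62 in the wild-type arrays. These groups did not overlap, with a log2 difference of 0.34. The lower one was Efl1, the GTPase that works with Sbds to free the large subunit for use, at 3.38 ± 0.40 in Elektra arrays and 4.09 ± 0.47 in wild-type arrays (SD, n = 4 each).

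Genes of mTORC1 and of TOP control, 17 of 17 measured, had a median log2 difference of -0.08, with 5 positive and 12 negative. Of the 17, 16 were of middle signal, and the 10043 genes of that signal outside the ribosomal proteins had a median of -0.04, with 40.2% positive. Without Elektra replicate 2, the list had a median of 0.05, with 10 positive and 7 negative, and those other genes one of 0.006, with 51.3% positive. At an unadjusted p under 0.05, 1 of the 17 was lower, as were 2.87% of all genes. It was Rps6kb1, which encodes the S6 kinase that phosphorylates the product of Rps6. Rps6kb1 read 4.51, 4.07, 4.39 and 4.50 in the Elektra arrays, against 4.65, 4.75, 4.74 and 4.69 in the wild-type arrays. All Elektra values were below all wild-type values, with replicate 2 the lowest, and the log2 difference was -0.34 (SE 0.11, unadjusted p = 0.0138 in limma), or -0.24 without that array. Mtor itself was 5.03 ± 0.39 in Elektra arrays and 5.36 ± 0.19 in wild-type arrays, with a log2 difference of -0.33, and of -0.14 without Elektra replicate 2. Larp1 differed by -0.05, and by 0.06 without that array. Myc, which drives transcription of ribosomal protein genes, differed by -0.11, by -0.03 without Elektra replicate 2 and by -0.01 without wild-type replicate 3. The ± values are SDs over 4 arrays each, and none of these genes passed.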

How the data were processed

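Affymetrix arrays of 4 Elektra and 4 wild-type samples were analysed. Per the submitters' processing notes, RMA and Affymetrix Expression Console 1.4 produced the log2 intensities that the authors deposited. RMA corrects background, normalises between arrays and summarises probes. The annotated table holds 34390 probe sets: 31872 with 1 gene symbol, 1 with several and 2517 with none. The deposited log2 fold changes and p-values in it equal those of a plain pooled-variance test on these log2 values. A series table of 41345 probe sets was an alternative. For the annotation, the sources used here give no genome build. RefSeq names, windows and coordinates are of GRCm38.p6.

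Each symbol was represented by its brightest probe set, with no filter on dim ones. The genotypes were compared with limma 3.58.1 (lmFit, eBayes; R 4.3.3) in a two-sided test. Its p-values were adjusted over 30918 genes by Benjamini-Hochberg, with a threshold of 0.05, a procedure tested on simulated data. The simulation drew noise for each gene separately, so it held no shift shared across an array such as that of Elektra replicate 2. No count of reads exists for arrays, and 4 arrays per group limit the precision. The labels call the replicates biological and name no batch.

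The genes, lists and tests were chosen with earlier results of these data known. Genes named are those with separate groups or an unadjusted p under 0.05, the 3 smallest p per direction and subunit, the 3 brightest and dimmest of each subunit, paralogs with their canonical gene, the stalk, Rpl5 and Rpl11, the Diamond-Blackfan genes of smallest p, the 3 of widest spread and the 4 whose probe sets differ most. Of each other list up to 4 were allowed. Rps6, Rps19, Rpl38, Eef1a1, Eef2, Mtor, Larp1 and Myc were added for their roles, and snoRNA genes after their values were seen. Alternatives covered normalisation, centring, dim probe sets, probe set choice, variance model, array weights, replicate block, input table, test, a split of arrays and arrays left out. Values of some genes that the rule names, or that lie among the lists, are not reported here, and 1 gene is left out of the plot of differences.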

Additional observations from a re-analysis of the deposited data

Results flagged for a closer look

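Rpl6 was the only gene picked out by a look for a lone array in each group. Its log2 intensity was 7.79 in Elektra replicate 1, and 7.42 to 7.45 in the other 3 Elektra arrays. The gap to the nearest of these was 0.905 of the group's whole range, above Dixon's 95% critical value for 4 samples. In all, 98 groups of 4 values were looked at, and chance alone picks out about 1 in 20.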

How the results depend on the processing

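The count of ribosomal protein genes passing an adjusted p of 0.05 in limma was 0 in all 20 alternatives, as was that of all genes, and the lowest adjusted p of a ribosomal protein gene was 0.503 (Rpl5, replicate block). The median log2 difference ran from -0.02 to 0.03 over all ribosomal protein genes, from -0.04 to 0.02 over the small subunit and from -0.008 to 0.056 over the large subunit. The lowest value for all ribosomal protein genes came with centring of arrays on their medians, which moved the median of all genes to -0.03. At an unadjusted p under 0.05, the 2 genes higher and 1 lower in Elektra became 4 higher and 2 lower with the replicate number as a block. With that block the lowest adjusted p over all genes was 0.308 in limma. The labels do not say whether same-numbered samples belong together, so pairing is not settled. Same-numbered arrays' deviations from their group means correlated at 0.135, 0.0106, 0.134 and 0.0550 over genes, and 4 of the 8 arrays correlated best with their own number. Leaving out the 3 arrays that earlier results put apart (Elektra 2 and 3, wild type 4) gave 0 higher and 2 lower, and the methods' t-test gave 3 higher and 2 lower. With each array left out in turn, 1 to 3 were higher and 1 to 3 lower: 1 higher without Elektra array 2 or wild-type array 1 or 4, 2 lower without Elektra replicate 1 and 3 lower without Elektra replicate 3. Rpl5 was lower at an unadjusted p under 0.05 in all 20. Of the genes described first, only Rpl31 turned in sign, to 0.000236, with the mean of its probe sets, which takes in the second probe set. Other named genes turned more often, among them Rpl21 in 8 of the 20, Rps13 in 7, and Rplp1 and Rps27l in 6 each. The median of the small subunit turned in 8. For the other changes the cause was not tested.

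The snoRNA genes and the spread of bright genes were recomputed without each array in turn, a choice made after seeing the data. The snoRNA median ran from -0.42 to -0.15, with 28 to 34 of 40 lower in Elektra, beside 42 to 55 of the 79 other snoRNA genes. Signal limits what the arrays can show: 95% intervals lay inside -0.5 to 0.5 for 25 of 26 bright genes but 17 of 35 of middle signal and 14 of 22 dim ones.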

Other observations

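Mitochondrial ribosomal proteins, which build the separate ribosome of the mitochondrion, were measured by 76 genes. Their median log2 difference, Elektra minus wild type, was 0.05, with 49 positive and 27 negative, and 0 passed the adjusted test in limma. It was 0.12, with 58 positive, without Elektra replicate 2, and -0.001, with 38 positive, without Elektra replicate 3. At an unadjusted p under 0.05 there were 2 higher and 0 lower in Elektra, where 2.63% of all genes were higher and 2.87% lower. Mrpl51 had log2 intensities of 3.81, 3.90, 3.67 and 3.68 in the Elektra arrays, against 3.40, 3.49, 3.50 and 3.40 in the wild-type arrays. The groups did not overlap, with a log2 difference of 0.32 (unadjusted p = 0.00673 in limma). Mrpl38 was 4.98 ± 0.19 in Elektra arrays and 4.69 ± 0.12 in wild-type arrays (SD, n = 4 each), and its groups overlapped through wild-type replicate 4.

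Ribosomal proteins whose symbols the choice did not cover were measured as well. Fau, made as a fusion with a ubiquitin-like protein, was 8.58 ± 0.03 in Elektra arrays and 8.60 ± 0.05 in wild-type arrays. Rack1, the signalling scaffold of the small subunit, was 7.24 ± 0.09 in Elektra arrays and 7.34 ± 0.08 in wild-type arrays. Rps3a1 was 1.27 ± 0.23 in Elektra arrays and 1.36 ± 0.12 in wild-type arrays (SD, n = 4 each).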
